A study of Mus musculus with 19 samples.

Results

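The protein part of the cytosolic ribosome is encoded by genes whose names begin with Rpl (large subunit) or Rps (small subunit). Genes with such a name followed by a number, together with Rplp0, Rplp1, Rplp2 and Rpsa, were taken from the deposited gene tables, leaving out Rps6k kinases and pseudogenes named with -ps. Of 12545 genes above 1 TPM (transcript abundance scaled to the same total in every library) in at least 1 of 7 RNA-seq libraries, 86 matched, and no matched gene stayed at or below 1 TPM in every library. They comprised 77 ribosomal protein genes (46 of the large and 31 of the small subunit), 8 paralogs that are described apart, and Rps19bp1, which encodes a protein that binds a ribosomal protein and is not itself counted. Fau and Rack1 also encode ribosomal proteins, under other names, and are given beside the members.

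The libraries came from preleptotene germ cells, the cells in which meiosis begins, sorted from testes of C57BL/6 mice. STRA8 is the retinoic acid-induced factor required for that step, and the study compared germ cells without it, with little of it and with much of it. There were 3 Stra8-deficient (Stra8 knock-out), 2 low-STRA8 and 2 high-STRA8 libraries, the last 2 groups from Stra8 heterozygous males. Males of every group had received WIN18,446, which blocks retinoic acid synthesis, from postnatal day 2 to 8 and retinoic acid on day 9, and testes were taken 6.75 days later. Every group also carried Ddx4 Cre/+ and Rosa26 tdTomato/+, so that the fluorescent protein used for sorting was made in germ cells. Heterozygous testes were classed as low or high by staining a piece of the testis for STRA8, the low group as the earlier and the high group as the later preleptotene stage, and neither holds a wild-type Stra8 genotype. Binding of STRA8 was measured by ChIP-seq against FLAG in whole, unsorted testes synchronized the same way, from 3 FLAG/FLAG mice, whose STRA8 carries the tag, and 3 wild-type mice. The labels number the RNA libraries but do not tie them to animals, so p-values measure the spread between these libraries.

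Ribosomal proteins assemble with ribosomal RNA into particles of fixed makeup, so the family is needed in matched amounts. Their mRNAs are short, abundant and carry a terminal oligopyrimidine tract, a C followed by pyrimidines at the very start of the mRNA, through which growth signals acting by mTOR control their translation. In the testis, a few retrocopies and duplicates such as Rpl10l and Rpl39l are known to be used in meiotic and later germ cells, where the X chromosome with Rpl10 and Rpl39 is silenced.

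The tract was looked for at the starts annotated by RefSeq on GRCm38.p6, because it is the sequence the family shares. A RefSeq entry matched 57 of the 77 members and all 8 paralogs. A C followed by at least 4 pyrimidines stood exactly at the annotated start in 12 of 57 members (21.1%) against 232 of 9728 expressed genes with an entry (2.38%). Taking any annotated start of a gene gave 13 of 57 members against 288 of 9728 genes (2.96%). Such a run began within 10 bases of the start in 30 members (52.6%) and in 31.8% of those genes. Examples with the run at the start follow, chosen to span both subunits, with 14 bases before the start, 16 bases from it onward and the run in capitals.
Rpl28, chr7:4792951-4792980, plus strand: cgcctctcgtgtctCTCTTTCCgtctccgg
Rpl38, chr11:114668566-114668595, plus strand: gcggaagcctcgttCTTTCCCCgttctctt
Rps18, chr17:33955650-33955679, minus strand: acgtcacttccgctCTCTCTTCCacaggag
Rps6, chr4:86857352-86857381, minus strand: agcggaagtcgggcCTCTTTTTCgtgacgc
Rps27, chr3:90213633-90213662, minus strand: tttccgctttcgctCCTTTCCggcggtgac
The paralogs of Rps27 and Rpl39 are shown for comparison. The offset of the run from the annotated start was 1 base in Rps27l, -6 in Rpl39l and 0 in Rps27rt. In Rpl39 itself, which is not printed, the run was displaced as well, with an offset of -4. A run began within 10 bases of the start in 6 of 8 paralogs.
Rps27l, chr9:66946072-66946101, plus strand: cactcctccccgccgCCTCTatcccggaag
Rps27rt, chr9:114982724-114982753, minus strand: gaacttatcccttgCTTTCCggcggtgacg
Rpl39l, chr16:10170214-10170243, plus strand: tcccaggcCTTTCCggatttccggtggtcg
These are annotated starts, which were not measured in these cells. In 16 of 57 members the RefSeq start lay within 10 bases of the start that GENCODE, another annotation, gives for the most abundant transcript. The distance was 25 bases for Rpl28, 29 for Rpl38, 12 for Rps18, 45 for Rps6 and 1 for Rps27. In the 300-base window, from 250 bases before the start to 50 after it, the ETS motif CCGGAAG was found on either strand in 22 of 57 members (38.6%) and in 19.3% of expressed genes. The SP1 motif GGGCGG, also on either strand, was found in 61.4% of members and 66.3% of genes. The STRA8-associated motif CNCCTCAG was found on either strand in 4 of 57 members (7.02%) and in 9.34% of expressed genes.

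Ribosomal protein mRNAs took the largest share of the library in low-STRA8 cells and the smallest in high-STRA8 cells. The 77 members held 17.2%, 17.8% and 19.4% of TPM in the Stra8-deficient libraries, 20.98% and 23.2% in the low-STRA8 libraries, and 15.8% in each high-STRA8 library. The ranges of the 3 groups did not overlap, with group means of 18.1% ± 1.13 (SD, n = 3), 22.1% ± 1.601 (SD, n = 2) and 15.8% ± 0.0133 (SD, n = 2). In estimated counts, which weight long mRNAs more, the members took 3.72% to 4.72%, 5.26% and 6.07%, and 3.33% and 3.12% of a library. TPM and counts are shares of each library. Less of this RNA per cell, fewer cells with the RNA and more of other mRNAs therefore cannot be told apart. The 31 small subunit genes together held 0.881 to 0.928 times the TPM of the 46 large subunit genes in Stra8-deficient libraries, 0.965 and 0.982 times in low-STRA8 libraries and 0.909 and 0.938 times in high-STRA8 libraries. The ratio was thus highest in both low-STRA8 libraries.

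**Figure D1:**
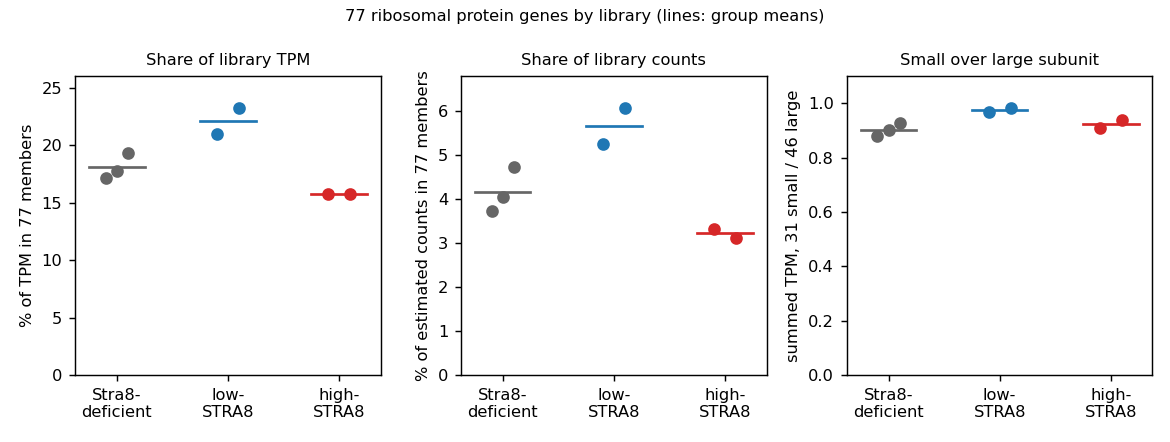
The 77 ribosomal protein genes in each of 7 libraries, as % of TPM (left), as % of estimated counts (middle) and as the summed TPM of small over large subunit genes (right). Points are libraries and lines are group means; both low-STRA8 libraries lie highest in each panel, at 20.98% and 23.2% of TPM.

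The members were among the most abundant mRNAs of these cells, and their order was nearly the same in every library. They supplied 15 or 16 of the 20 most abundant genes and 58 to 63 of the top 100. Mean TPM over the 7 libraries had a median of 1964 with quartiles at 1242 and 3231, against a median of 25.3 over all 12525 genes tested. Small subunit genes had a median of 2649 TPM and large subunit genes 1694 TPM. Spearman's rho of the 77 levels ranged from 0.954 to 0.992 between libraries of the same group and from 0.923 to 0.986 between groups.

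Rps24 (ENSMUSG00000025290, chromosome 14, 24490681 to 24496959), a small subunit protein mutated in Diamond-Blackfan anemia, had the highest mean level. It held 7019, 8199 and 8925 TPM in Stra8-deficient cells, 9712 and 11253 TPM in low-STRA8 cells and 8173 and 7544 TPM in high-STRA8 cells. Rps28, a small subunit protein, followed with 5703, 7232 and 8086, then 9734 and 11071, and 6307 and 7139 TPM. Rps24 was above Rps28 in 6 of 7 libraries, and the exception was low-STRA8 replicate 1. Rpl41, the smallest ribosomal protein, ranged from 5113 to 7286 TPM. It was followed by Rpl26, which lines the exit tunnel (4353 to 7585 TPM), and Rpl13a (4785 to 6331 TPM). These 3 overlapped over libraries, and Rpl26 exceeded Rpl13a in only 4 of 7.

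The lowest levels were those of Rpl5, Rps4x and Rps20. Rpl5, which carries 5S ribosomal RNA into the large subunit with Rpl11, held 245, 241 and 219 TPM in Stra8-deficient, 268 and 326 TPM in low-STRA8 and 222 and 165 TPM in high-STRA8 cells. The X-linked Rps4x ranged from 272 to 380 TPM and Rps20 from 342 to 522 TPM. The span from Rpl5 to Rps24 was 36.1-fold in mean TPM. The low end depends on where reads were assigned. Ribosomal protein genes have many processed copies in the genome, and transcripts of other genes sharing at least 50% of their 31-base words with a member (near-copies) existed for 71 of the 86 genes. Counts on these 310 transcripts equalled 13.3% to 17.9% of the members' counts in a library.

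For 11 members the near-copies held at least 50% as many counts as the gene itself, and 5 of these members were among the 10 with the lowest mean TPM. Rpl5 had near-copies with 478% of its own counts, with Gm15500 as the main one. Rpl12 had 337% (Gm10275), Rpl35 had 253% (Gm2000), Rpl27 had 207% (Rpl27-ps3), Rpl11 had 195% (Gm10288), Rpl17 had 124%, Rpl27a had 107%, Rps7 had 99.9%, Rpl10a had 78.5%, Rpl14 had 71.2% and Rpl23 had 54.2%. Near-copies of Rpl5 held 2705, 2669 and 2743 TPM in Stra8-deficient cells, 2708 and 3173 TPM in low-STRA8 cells and 2354 and 2207 TPM in high-STRA8 cells. In these 11 members 37.3% to 79.2% of 31-base words also occur in other genes, and the reads had 40 bases, so their levels are uncertain.

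**Figure D2:**
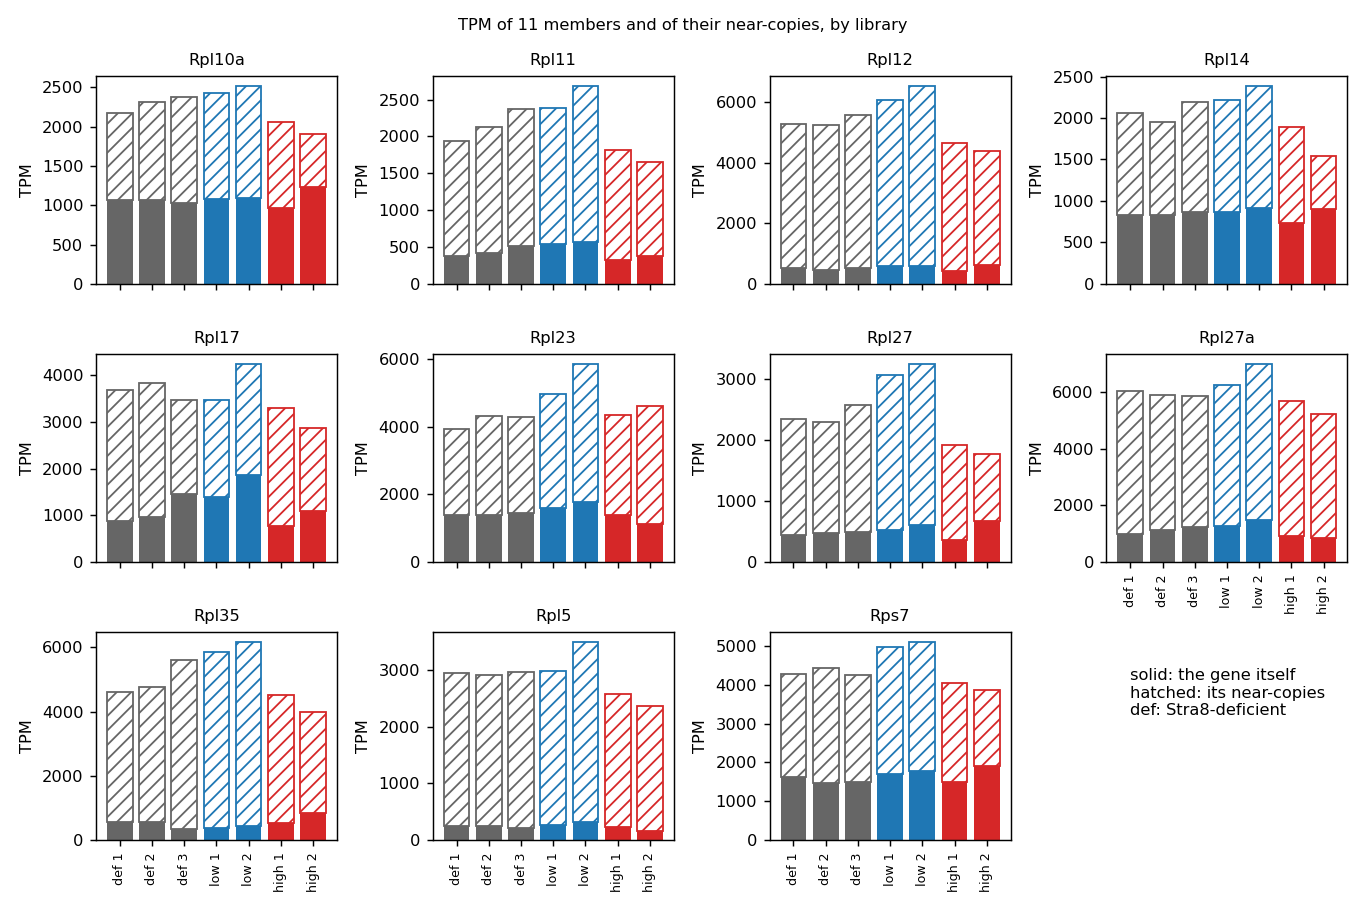
TPM of the 11 members whose near-copies held at least 50% of their own counts, by library (def, Stra8-deficient; solid, the gene; hatched, its near-copies, on the same TPM scale). In Rpl35 the solid part is highest in high-STRA8 replicate 2, while the whole bar is lowest there.

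Relative levels of ribosomal protein mRNA were lower in high-STRA8 than in low-STRA8 cells across most of the family. This comparison asks what changes within heterozygous cells between little and much STRA8. Of 77 members, 64 fell and none rose (36 of 46 in the large and 28 of 31 in the small subunit; edgeR, adjusted p under 0.05), while 18.3% of the 12525 genes tested were called lower. No member was called higher, and 21.3% of all genes were. The members' median log2 fold change was -0.71, or 1.63-fold lower, with medians of -0.68 for the large and -0.72 for the small subunit and 0.01 over all genes. In TPM, both high-STRA8 libraries lay below both low-STRA8 libraries for 63 of 77 members, against 30.4% of all genes.

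The lowest fold change was that of Rps13 (ENSMUSG00000090862, chromosome 7, 116331505 to 116334195), a small subunit protein. It held 2870 and 3237 TPM in low-STRA8 cells and 1771 and 730 TPM in high-STRA8 cells, where the 2 libraries differed widely. Its log2 fold change was -1.53 (standard error, SE, of 0.441 and edgeR adjusted p = 0.0253). Rps2 (ENSMUSG00000044533, chromosome 17, 24720063 to 24721929), at the entry of the mRNA channel, fell from 2342 and 2445 TPM to 1138 and 982 TPM. Its log2 fold change was -1.23 (SE 0.176, edgeR adjusted p = 0.00177). Rps21 fell by 1.21 on the log2 scale, from 4403 and 4352 TPM to 2820 and 2348 TPM (edgeR adjusted p = 0.00574). Rps29 had 6733 and 7120 TPM in low-STRA8 cells against 4376 and 4117 TPM (log2 fold change -1.17, edgeR adjusted p = 0.00454). In each of these genes the 2 groups did not overlap.

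The acidic stalk, which recruits the GTPases of translation, fell as a whole. Rplp0, its base, held 2291 and 2421 TPM in low-STRA8 cells and 1372 and 1241 TPM in high-STRA8 cells (log2 fold change -0.995, SE 0.169, edgeR adjusted p = 0.00329). Rplp1 went from 4186 and 4121 TPM to 2383 and 2451 TPM (log2 fold change -1.14, edgeR adjusted p = 0.00209). Rplp2 went from 4306 and 4212 TPM to 2985 and 3418 TPM (log2 fold change -0.83, edgeR adjusted p = 0.00337). All 3 fell, as did both 5S partners, Rpl5 (log2 fold change -0.73, adjusted p = 0.00984) and Rpl11 (-0.82, edgeR adjusted p = 0.00765).

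Members were also grouped by their position in the ribosome. All 5 listed genes of the mRNA channel fell, with a median log2 fold change of -0.92. Of the 10 members listed here as mutated in Diamond-Blackfan anemia, a chosen list, 9 fell, with a median of -0.69. Of 8 genes around the exit tunnel 4 fell, with a median of -0.40. Of 4 genes around the peptidyl transferase center 2 fell, Rpl8 and the X-linked Rpl10. Rpl8 went from 2117 and 2378 TPM to 1362 and 1187 TPM (log2 fold change -1.02, edgeR adjusted p = 0.00254). Rpl3 and Rpl4, the other genes there, had log2 fold changes of -0.17 and -0.30 and did not pass. Differences between these groups were not tested. Fau and Rack1, ribosomal proteins under other names, fell like the members (log2 fold changes -0.81 and -0.56, edgeR adjusted p = 0.00368 and 0.00658).

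Of the 4 X-linked members, 2 fell. Rpl36a fell from 1373 and 1562 TPM to 921 and 787 TPM (log2 fold change -0.93, edgeR adjusted p = 0.00586), and Rpl10 from 1051 and 1030 TPM to 919 and 861 TPM (-0.41, edgeR adjusted p = 0.0158). Rpl39 held 1049 and 1230 TPM in low-STRA8 and 1081 and 1222 TPM in high-STRA8 cells (-0.29, edgeR adjusted p = 0.117). Rps4x held 298 and 318 TPM against 313 and 300 TPM (-0.18, edgeR adjusted p = 0.417). The libraries of Rpl39 and Rps4x overlapped between the groups.

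Of the 13 members that did not pass, 6 were among those with abundant near-copies. Rpl35 was the only member with a positive log2 fold change (0.57, SE 0.254, edgeR adjusted p = 0.105), from 367 and 445 TPM to 519 and 837 TPM. The near-copies of Rpl35 went the other way, from 5495 and 5724 TPM to 3990 and 3158 TPM. With counts of near-copies added to each member, which was chosen after the data were seen, the log2 fold change of Rpl35 was -0.53 (edgeR adjusted p = 0.0148), all 77 members had a negative value and 73 were called lower. The next highest members were Rps23, at the decoding center, and Rpl10a. Rps23 had 1108 and 1331 TPM against 1076 and 1418 TPM, and Rpl10a 1084 and 1089 TPM against 963 and 1231 TPM. Their log2 fold changes were -0.16 and -0.17 (edgeR adjusted p = 0.432 and 0.304), while their mean TPM was slightly higher in high-STRA8 cells and limma on TPM gave 0.02 and 0.003.

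**Figure D3:**
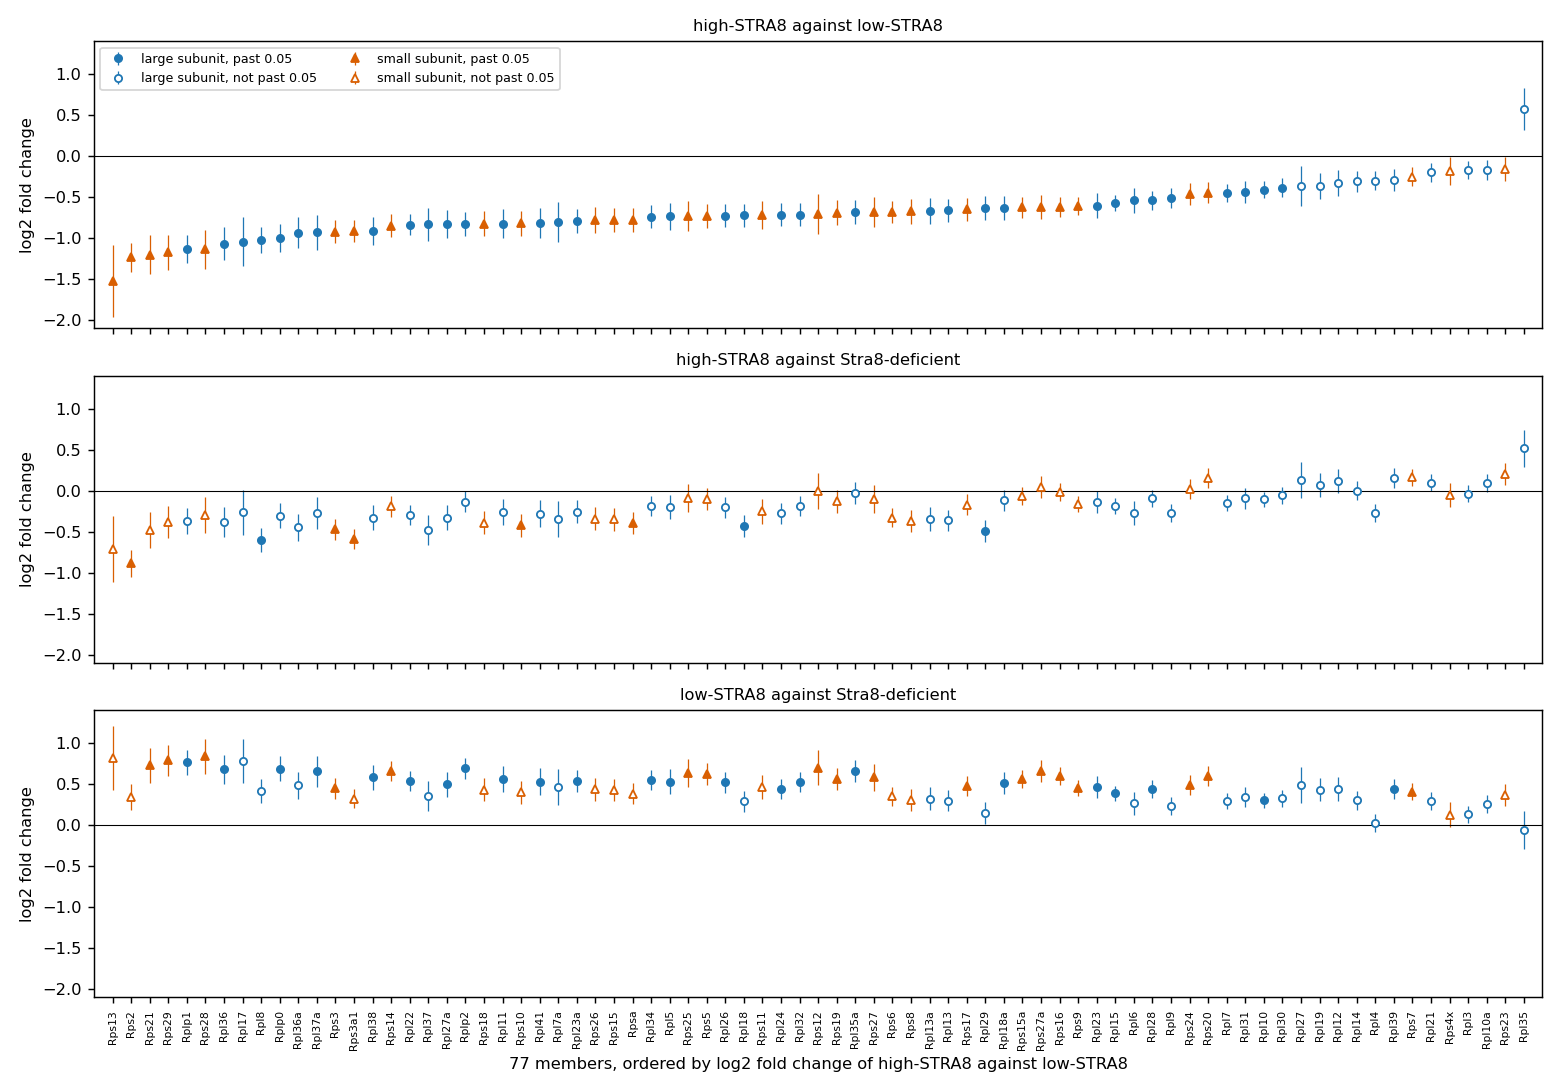
Log2 fold change with standard error (edgeR) of each of 77 members in the 3 comparisons, in the order of the first. Circles are large and triangles small subunit genes, filled where the adjusted p is under 0.05: 64 members are filled in the top, 8 in the middle and 41 in the bottom panel.

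Without high-STRA8 replicate 2 there were 20 members called lower, with a median log2 fold change of -0.64 and 76 of 77 values negative, and calls among all genes went from 2287 to 532. On the log2(TPM + 1) scale (limma) 54 members were called lower and the median was -0.45, with 5 positive values. Across the members, 16 were called lower under every alternative tried, among them all 3 stalk genes, Rps2, Rps21, Rps29, Rpl8 and Rpl36.

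Length of the mRNA moved with the difference. Effective length is the number of positions at which a read could start, and the members' median was 518 bases. Among other genes, the median log2 fold change of high-STRA8 against low-STRA8 cells went from -0.32 in the shortest of 5 length bins through -0.13, -0.01 and 0.10 to 0.42 in the longest. The share of other genes called lower was 28.8% in the shortest bin and 6.91% in the longest. The 608 other genes with lengths between the members' quartiles had a median of -0.38, and 31.6% of them were called lower, against 83.1% of members. The 6 of these that also reached the members' lower quartile of mean TPM had a median of -0.63, and 83.3% were called lower. Of 32 other genes of any length at that level, 40.6% were called lower and 37.5% higher, with a median of -0.23. With the length trend of the other genes removed, 35 of 77 members were called lower, with a median of -0.44, and all 35 were among the 64. In that fit 2427 of the 12525 genes were called lower and the median over all genes was -0.09. The members' median relative to all genes was then -0.34, against -0.71 without the correction. Between low-STRA8 and Stra8-deficient cells the trend ran the opposite way, from 0.26 in the shortest bin to -0.38 in the longest. There the 6 short and abundant genes had a median of 0.47 and the 32 abundant genes 0.23, against 0.46 for the members.

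**Figure D4:**
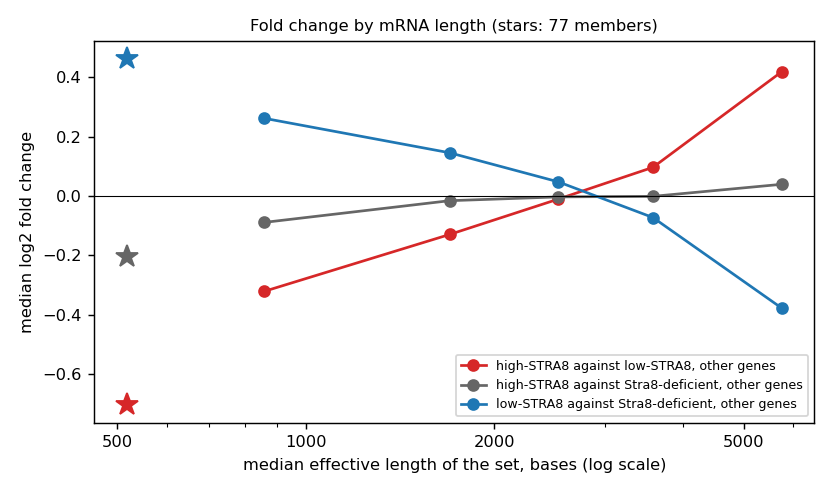
Median log2 fold change against median effective length (log axis) for 5 length bins of the other genes (points joined by lines) and for the 77 members (stars), in the 3 comparisons. For high-STRA8 against low-STRA8 the points go from -0.32 to 0.42 and the members' star lies at -0.71.

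Low-STRA8 cells in turn had higher relative levels of these mRNAs than Stra8-deficient cells. This comparison sets germ cells with little STRA8 against cells that lack it. Of 77 members, 41 rose and none fell (23 of the large and 18 of the small subunit; edgeR), against 10.1% of all genes called higher and 13.9% called lower. The median log2 fold change was 0.46, or 1.38-fold, and 0.03 over all genes. Both low-STRA8 libraries lay above all 3 Stra8-deficient libraries in TPM for 48 members, against 12.1% of all genes, and above all other 5 libraries for 42, against 5.56%.

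Rps28 had the highest log2 fold change (0.84, SE 0.212, edgeR adjusted p = 0.0241). Rps13 came next, at 1571, 1959 and 2565 TPM in Stra8-deficient cells, and did not pass (0.82, edgeR adjusted p = 0.162). Rps29 rose by 0.79 on the log2 scale, from 4462, 4617 and 5421 TPM (edgeR adjusted p = 0.0216). All 3 stalk genes rose, and Rplp1, with 2700, 2735 and 3208 TPM in Stra8-deficient cells, had a log2 fold change of 0.77 (edgeR adjusted p = 0.0103). Both 5S partners rose, by 0.53 for Rpl5 and 0.56 for Rpl11 on the log2 scale (edgeR adjusted p = 0.0340 and 0.0333). At the low end, Rpl35 had -0.06, Rpl4 0.03 and Rps4x 0.13 (edgeR adjusted p = 0.885, 0.886 and 0.575). Rps20, which has a low level, rose from 342, 377 and 407 TPM to 476 and 522 TPM (0.60, edgeR adjusted p = 0.00999).

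Without Stra8-deficient replicate 1, Stra8-deficient replicate 2 or low-STRA8 replicate 2, the counts were 16, 8 and 9, with medians of 0.42, 0.44 and 0.33 and 75 to 77 of 77 values positive. Over all genes the calls went from 1269 to 1012, 616 and 1111. With the length trend removed the count was 11 and the median 0.26. In that fit 1341 of the 12525 genes were called higher and the median over all genes was 0.10. The members' median relative to all genes was then 0.16. On the log2(TPM + 1) scale (limma) 20 members were called higher with a median of 0.25, against 496 genes and a median of -0.15 over all genes. Rplp1 and Rps20 were called under every alternative tried.

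Between high-STRA8 and Stra8-deficient cells few members passed the test. The comparison sets germ cells with much STRA8 against cells that lack it. Of 77 members 8 fell and none rose (edgeR), while 18.3% of all genes were called lower and 18.8% higher. At an unadjusted p under 0.05 there were 21 of 77 members and 5810 of the 12525 genes, a smaller share of the members than of all genes. The median log2 fold change was -0.20, or 1.152-fold lower, and -0.02 over all genes, and 65 of 77 values were negative. In TPM, both high-STRA8 libraries lay below all 3 Stra8-deficient libraries for 43 members, against 39.3% of all genes. This comparison shares its high-STRA8 libraries with the first and its Stra8-deficient libraries with the second.

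Rps2 fell most, from 1993, 1847 and 2575 TPM to 1138 and 982 TPM (log2 fold change -0.89, SE 0.163, edgeR adjusted p = 0.00368), and was called under every alternative tried. Rpl8 fell from 1901, 1861 and 2154 TPM to 1362 and 1187 TPM (-0.60, edgeR adjusted p = 0.0137). Rps13 had a log2 fold change of -0.71 and did not pass (edgeR adjusted p = 0.204). The other members that fell were Rps3a1 (-0.59), Rpl29 (-0.49), Rps3 (-0.47), Rpl18 (-0.43), Rps10 (-0.42) and Rpsa (-0.40), named after their values were seen. At the high end stood Rpl35 (0.52), Rps23 (0.21) and Rps7 (0.16), with adjusted p of 0.111, 0.263 and 0.270 (edgeR). With counts of near-copies added, Rpl35 had -0.12 and Rps7 -0.06 (edgeR adjusted p = 0.491 and 0.681), and 4 of 77 values were positive. The call count was 1 without high-STRA8 replicate 2, 3 without Stra8-deficient replicate 3, 5 without Stra8-deficient replicate 2 and 13 without either low-STRA8 replicate, and DESeq2 called 17.

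The paralogs together held 1620 to 2543 TPM, 1.03% to 1.31% of the members' TPM. In relative level, high-STRA8 cells were below low-STRA8 cells for 6 of 8 (edgeR). They were below Stra8-deficient cells for 4 of 8, namely Rpl22l1, Rpl36al, Rpl39l and Rpl7l1, while 18.3% of all genes were called lower in each comparison. The 6 became 1 without high-STRA8 replicate 2, 4 without high-STRA8 replicate 1 or low-STRA8 replicate 2, and 2 with the length trend of other genes removed. The 4 became 0 without high-STRA8 replicate 2, 1 without replicate 1 and 2 with a replicate block. The median of the 8 log2 fold changes was -0.61 and -0.34 in these comparisons and -0.59 and -0.37 without high-STRA8 replicate 2. For 5 of 8 paralogs both high-STRA8 libraries lay below the other 5 in TPM, against 23.9% of all genes.

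Rpl22l1 (ENSMUSG00000039221, chromosome 3, 28805436 to 28807424), a paralog of Rpl22 that binds RNA outside the ribosome as well, held 156, 174 and 203 TPM in Stra8-deficient cells, 200 and 161 TPM in low-STRA8 cells and 91.9 and 58.4 TPM in high-STRA8 cells. It was lower in high-STRA8 than in low-STRA8 cells by a log2 fold change of -1.08 (SE 0.256, adjusted p = 0.0119) and than in Stra8-deficient cells by -0.98 (SE 0.238, edgeR adjusted p = 0.0126). It stood at 5.03% to 5.54% of the TPM of Rpl22 in Stra8-deficient, 4.62% and 3.50% in low-STRA8 and 3.36% and 2.14% in high-STRA8 cells, with no overlap between groups. Rpl7l1, a paralog of Rpl7 that takes part in making the large subunit, held 121, 110 and 135, then 109 and 126, and 81.4 and 74.3 TPM. Its log2 fold changes in high-STRA8 cells were -0.72 against low-STRA8 (adjusted p = 0.00676) and -0.57 against Stra8-deficient cells (edgeR adjusted p = 0.0122).

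Rpl39l (ENSMUSG00000039209, chromosome 16, 10170226 to 10174911), the autosomal copy of Rpl39, held 491, 517 and 529 TPM in Stra8-deficient cells, 519 and 500 TPM in low-STRA8 cells and 404 and 324 TPM in high-STRA8 cells. High-STRA8 cells were below both other groups, with log2 fold changes of -0.64 against low-STRA8 (SE 0.137, adjusted p = 0.00784) and -0.40 against Stra8-deficient cells (SE 0.126, edgeR adjusted p = 0.0349). Only 2.05% of its 31-base words occur in other genes. Its TPM was 41.4% to 61.2% of that of Rpl39 in Stra8-deficient cells, 49.5% and 40.7% in low-STRA8 cells and 37.4% and 26.6% in high-STRA8 cells.

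Rpl10l (ENSMUSG00000060499, chromosome 12, 66283379 to 66284401), the copy of X-linked Rpl10, held 103, 82.0 and 92.0 TPM, then 89.9 and 88.0, and 75.6 and 72.1 TPM. It was lower in high-STRA8 than in low-STRA8 cells (log2 fold change -0.44, edgeR adjusted p = 0.0311), and stayed at 8.20% to 10.6% of the TPM of Rpl10 in all 7 libraries. Rpl36al, the autosomal copy of Rpl36a, held 778, 738 and 795, then 738 and 783, and 553 and 443 TPM. It fell against low-STRA8 (-0.72, adjusted p = 0.00325) and against Stra8-deficient cells (-0.47, edgeR adjusted p = 0.0117), and stood at 50.2% to 74.5% of the TPM of Rpl36a.

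Rps27l, a paralog of Rps27 induced by p53, followed the ribosomal pattern, with 575, 552 and 768 TPM in Stra8-deficient, 862 and 847 TPM in low-STRA8 and 604 and 625 TPM in high-STRA8 cells. It rose in low-STRA8 over Stra8-deficient cells (log2 fold change 0.54, adjusted p = 0.0229) and was lower in high-STRA8 than in low-STRA8 cells (-0.58, edgeR adjusted p = 0.0170). Rpl3l, known from muscle, lay between 14.9 and 19.9 TPM and passed in none of the 3 comparisons. Rps27rt, a retrocopy of Rps27, was the member closest to the 1 TPM limit, listed at 0 in 3 libraries and at most at 8.24 TPM, and 92.7% of its 31-base words occur in other genes.

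**Figure D5:**
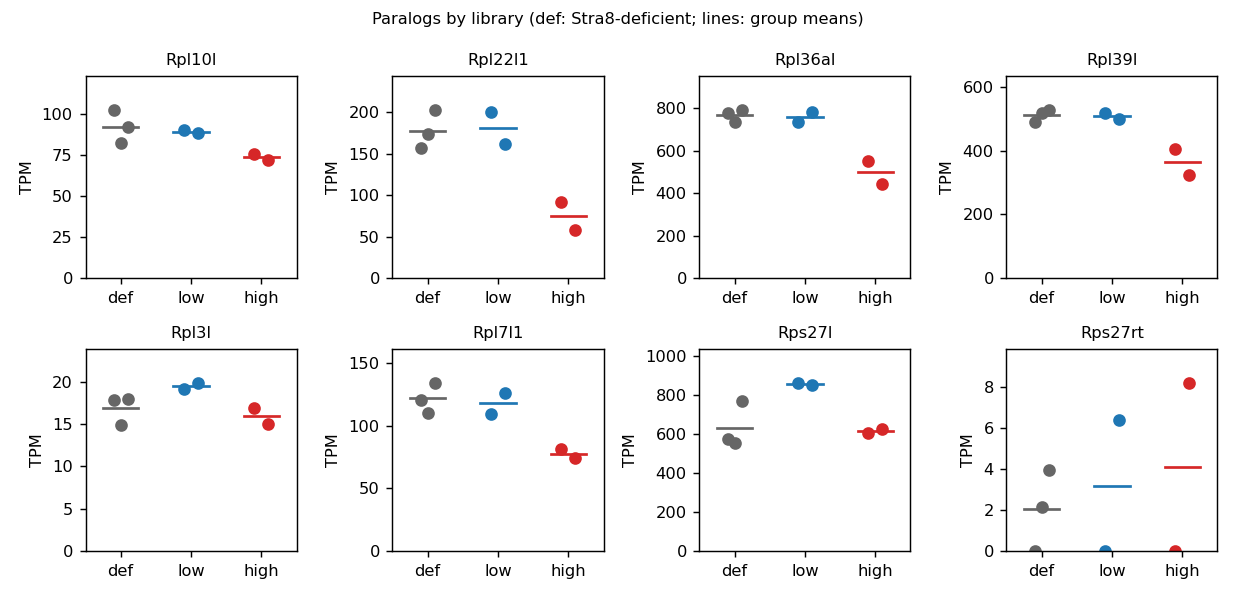
TPM of the 8 paralogs in each library of the 3 groups, each panel on its own axis from 0, with lines at group means. Rpl22l1, Rpl36al, Rpl39l, Rpl7l1 and Rpl10l lie lowest in both high-STRA8 libraries, and Rpl3l and Rps27l highest in both low-STRA8 libraries.

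Mitochondrial ribosomal protein genes, which encode a separate ribosome, went the same way. Of 78 tested, 39 fell and 1 rose in high-STRA8 against low-STRA8 cells (18.3% and 21.3% of all genes), with a median log2 fold change of -0.42, and 21 rose in low-STRA8 against Stra8-deficient cells (10.1% of all genes). Mrps23 and Mrps30, of its small subunit, fell by 0.73 and 0.76 on the log2 scale (edgeR adjusted p = 0.00230 and 0.00324). Of 35 translation factors, 18 fell and 5 rose in high-STRA8 against low-STRA8 cells, with a median of -0.38. Eif4a1, the helicase that unwinds mRNA leaders, fell from 664 and 678 TPM to 449 and 440 TPM (-0.72, edgeR adjusted p = 0.00328), while Eif5b, which joins the subunits, rose from 77.9 and 99.8 TPM to 177 and 167 TPM (0.86, edgeR adjusted p = 0.00319). Genes for building ribosomes had shares nearer to those of all genes in the same comparison: of 63 assembly factors 16 fell and 12 rose, with a median of -0.09, and of 15 subunits of RNA polymerase I, which makes ribosomal RNA, 3 fell and 5 rose. Ncl, the nucleolar protein nucleolin, rose from 279 and 281 TPM to 573 and 556 TPM (log2 fold change 0.92, edgeR adjusted p = 0.000829). Dhx37, a helicase of small subunit assembly, rose from 10.39 and 10.53 TPM to 33.6 and 35.5 TPM (1.62, edgeR adjusted p = 0.000416). Polr1a, the largest subunit of that polymerase, rose from 7.73 and 7.75 TPM to 21.7 and 23.2 TPM (1.44, edgeR adjusted p = 0.000454). Polr1c, shared with RNA polymerase III, fell from 151 and 195 TPM to 92.6 and 77.6 TPM (-1.16, edgeR adjusted p = 0.00201). Of 17 regulators of terminal oligopyrimidine mRNAs and growth 6 rose and 2 fell. Among those that rose were Tsc1, which restrains mTOR, and Rptor, which is part of its complex (1.61 and 1.29, edgeR adjusted p = 0.000781 and 0.000577).

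STRA8 summits were scarcer at these genes than at expressed genes as a whole. A summit within 1 kb of a start site in at least 2 of 3 FLAG/FLAG libraries, and in no wild-type library, was found for 8 of 77 members (10.4%) and none of 8 paralogs, against 22.5% of 12468 expressed genes. None of the 77 had a summit in all 3 FLAG/FLAG libraries, against 11.9% of those genes, and a summit in at least 1 was found for 22, or 28.6%, against 38.3%. The 8 were Rpl10a, Rpl3, Rpl35a, Rpl36, Rpl5, Rpl7, Rplp1 and Rps20. Their highest scores (-log10 p) ranged from 10.1 for Rplp1 to 21.9 for Rpl35a, against a median of 22.8 over the bound expressed genes. For Rpl35a and Rpl7 the start of another gene, Iqcg and Rdh10, also lay within 1 kb of a summit. Without FLAG/FLAG replicate 1 none of the 77 had summits in the other 2 libraries, and without replicate 2 there were 2, against 12.1% and 13.2% of expressed genes. The motif CNCCTCAG lay within 50 bases of 1 of 17 summits at these 8 genes, at Rps20, and of 14.9% of 6874 summits at all bound genes.

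The 8 genes with a summit did not stand outside the range of the other members. In high-STRA8 against low-STRA8 cells 6 of 8 fell, with a median log2 fold change of -0.57, and 58 of the other 69, with a median of -0.71. Among them Rpl36 fell from 2662 and 3087 TPM to 1829 and 1920 TPM (log2 fold change -1.07, edgeR adjusted p = 0.00462) and Rpl35a from 3631 and 4125 TPM to 2930 and 2850 TPM (-0.69, edgeR adjusted p = 0.00763). Rpl7 fell by 0.45 on the log2 scale (edgeR adjusted p = 0.0129), while Rpl3, at 1351 and 1288 against 1339 and 1248 TPM, did not pass (-0.17, edgeR adjusted p = 0.252). In high-STRA8 against Stra8-deficient cells 0 of the 8 fell (median -0.10) and 8 of the other 69 (median -0.26). In low-STRA8 against Stra8-deficient cells 5 of the 8 rose (median 0.57) and 36 of the other 69 (median 0.45). Differences between the 8 and the other members were not tested. The ChIP was made on whole testes, so the cells holding these summits were not identified. The paper reports that most STRA8-expressing cells in these testes were initiating meiosis and a minority were spermatogonia. The FLAG/FLAG libraries held 5687, 3299 and 2035 summits, and replicate 3 was made with another kit than replicates 1 and 2.

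Marker lists differed between the groups as well. Stra8 itself stood at 17.97, 22.8 and 5.16 TPM in Stra8-deficient, 315 and 235.9 TPM in low-STRA8 and 1099 and 1248 TPM in high-STRA8 libraries, in the order of the labels, and the libraries held 25049625 to 30015072 estimated counts. Markers of preleptotene germ cells, 11 of 11 above 1 TPM, moved opposite to the members and without overlap. They summed to 3979 and 4353 TPM in low-STRA8, 4680 to 6609 TPM in Stra8-deficient and 9351 and 10592 TPM in high-STRA8 libraries. In high-STRA8 against low-STRA8 cells 7 of 11 rose and 1 fell (edgeR). The list holds Stra8, by which the groups were defined. It also holds Dmc1, Prdm9, Sycp3, Dazl and Gcna, which the paper reports as upregulated by STRA8, and Rec8, which it reports as downregulated at meiotic initiation. Its sum therefore cannot separate the share of such cells from the level of STRA8. Markers of undifferentiated spermatogonia, 7 of 10 above 1 TPM, summed to 16.2 and 21.1 TPM in low-STRA8, 22.7 and 23.8 TPM in high-STRA8 and 52.2 to 65.0 TPM in Stra8-deficient libraries, lowest where the members were highest. Macrophage and blood cell markers, 7 of 9 above 1 TPM, summed to 42.6 and 46.6 TPM in low-STRA8, 8.23 to 27.2 TPM in Stra8-deficient and 1.79 and 7.88 TPM in high-STRA8 libraries. The sum was in the order of the members, but most single markers were not. In low-STRA8 against Stra8-deficient cells 2 of the 7 rose and 5 had negative log2 fold changes, with a median of -1.71. The hemoglobin gene Hbb-bs held 22.9 and 27.0 TPM in low-STRA8 and 0.327 and 2.55 TPM in high-STRA8 libraries. Sertoli cell markers, 10 of 10 above 1 TPM, summed to 190 and 790 TPM in low-STRA8, 628 to 848 TPM in Stra8-deficient and 818 and 873 TPM in high-STRA8 libraries. Leydig cell markers (6 of 8) summed to 8.23 to 27.9 TPM and peritubular and endothelial markers (5 of 8) to 53.0 to 98.2 TPM over the 7 libraries. No marker of these lists was at 0 in all 7 libraries, and the part of such cells, or of stage, in the members' differences was not tested.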

How the data were processed

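Poly(A) RNA of 7 libraries was sequenced as 40-base single reads with a stranded kit. The authors made expected counts and TPM per transcript with kallisto 0.43.0 (estimated counts as deposited), added up the protein-coding transcripts of each gene and scaled these TPM again to a fixed total. They called ChIP summits with Bowtie 1.2.0 and MACS2 2.1.1.20160309 on mm10, and the deposited summit score is -log10 p. The authors' tables of counts divided by size factors were not used, and the 6 input libraries were not analysed here.

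Transcripts were matched to GENCODE M21 and summed to the authors' genes where TPM agreed within 0.2% or 0.003 TPM, which gave counts for 12525 of 12545 genes above 1 TPM. After rounding, counts went into edgeR 4.0.16 (TMM, robust quasi-likelihood test, 1 fit of 7 libraries, Benjamini-Hochberg over all genes, threshold 0.05). Simulated 1.5-, 2- and 4-fold changes in 200 of 12525 genes were used to test the script. A library held 25049625 to 30015072 counts. Pairs of replicates differed by more than sampling noise. Chi-square over its degrees of freedom was 9.13 to 37.6 over all genes tested and 42.4 to 149.7 over the 77 members. The high-STRA8 pair had the lowest value over all genes and the highest over the members. Summits were assigned to genes whose start lay within 1 kb, with R 4.3.3 and Python 3.11.15 for all steps.

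The members, gene lists and tests were chosen with earlier results of these data known. Named are the paralogs, the stalk, X-linked and 5S members, the 5 highest and 3 lowest in level, the 5 lowest and 3 highest in fold change of high-STRA8 against low-STRA8 cells and 3 of each in the other comparisons, members called against the direction of most, members with summits in at least 2 libraries, and for other lists the 2 genes with the smallest adjusted p. Alternatives were DESeq2 1.42.0, limma 3.58.1 on log2(TPM + 1) and log2(TPM + 0.1), another scaling, filter, length correction or count assignment, a replicate block and leaving out each library. One gene of the other lists is not reported here.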

Additional observations from a re-analysis of the deposited data

How the results depend on the processing

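Members were called lower in high-STRA8 than in low-STRA8 cells 64 times. The count was 35 with the length trend of other genes removed, 28 with that and a replicate block together, and 20 to 66 when single libraries were left out. No member was called higher, except 1 (Rpl35) with the replicate block and 1 with the block and the length trend. For high-STRA8 against Stra8-deficient cells the count of 8 became 17 with DESeq2, 19 with a filter of 5 TPM, 21 and 20 with limma on log2(TPM + 1) and log2(TPM + 0.1), 2 with the replicate block and 3 with block and length trend, and ranged from 1 to 13 without single libraries. For low-STRA8 over Stra8-deficient cells the count of 41 became 11 with the length trend removed, 7 with block and length trend, 20 and 21 with limma, and ranged from 8 to 50. No member was called in the opposite direction in either comparison, under any alternative. With the length trend removed, the members' median relative to all genes was -0.34 for high-STRA8 against low-STRA8 cells. For low-STRA8 against Stra8-deficient cells it was 0.16. On the TPM scale of limma the median of all genes stood at 0.11 for high-STRA8 against low-STRA8 and at -0.15 for low-STRA8 against Stra8-deficient cells, the members' own medians were -0.45 (54 called lower) and 0.25, and relative to all genes -0.56 and 0.40. With near-copies added, Rpl35 turned from 0.57 to -0.53 and, in low-STRA8 against Stra8-deficient cells, from -0.06 to 0.41. Replicate numbers are shared by the groups, but same-numbered libraries did not deviate together (correlation of deviations -0.119 to -0.00930), so the block tests only a shared number. The count of members with STRA8 summits was 8, 0 when all 3 libraries were required, 22 with at least 1, and 0 to 6 with a library left out. Apart from the losses of samples and genes built into an alternative, the cause was not tested. With 2 libraries in 2 groups and reads of 40 bases, small changes and near-identical copies limit what these counts can show.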
